A study of Mus musculus with 87 samples.

Results

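Hearts of semi-cloned mouse fetuses labelled pIR were compared with hearts labelled pWT at embryonic stage E18.5, shortly before birth. The comparison holds 8 of the 87 libraries of the study, 4 pIR and 4 pWT, all labelled batch 2. Semi-cloning replaces the sperm at fertilisation with an androgenetic haploid embryonic stem cell, whose genome is of paternal origin. All groups used here share that origin as far as the series title states it, and the title names haploid cells lacking DNA methylation. The labels do not spell out pIR or its leading letter, nor do they give the number of cell lines, litters or injected clones behind the libraries. Other groups used for comparison were pIR and pWT liver at E18.5 (4 each, batch 2), pIR (2) and pWT (3) heart at postnatal day 1 (P1), and pTKO and pWT heart at E18.5 (2 each, batch 1). Whether libraries of a group come from separate animals is not stated, so p-values measure the spread between these libraries.

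DNA methylation is a chemical mark on cytosines that, at gene promoters, usually accompanies silencing. At imprinted genes it is set in the egg or the sperm and decides which parental copy is transcribed, and in body tissues it keeps a group of germ cell genes silent. The heart close to birth is a contracting organ whose muscle cells still divide and still rely largely on glycolysis and lactate, before fatty acids take over after birth.

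Total assigned counts were 16.3 to 22.1 M (units of 1000000) per pIR heart library and 16.4 to 18.9 M per pWT heart library. The deposited counts were raw, and 14611 genes passed the filter on low counts. The 4 Y-linked genes listed had 0 counts in all 8 hearts, and Xist had at least 17722 in each. The labelled tissue was borne out by its markers: the 25 sarcomere genes listed summed to 90967 to 96829 CPM (counts per 1000000 assigned counts) in pIR hearts and 91012 to 96722 CPM in pWT hearts. Myh6, a motor protein of heart muscle, averaged 14426 ± 1056 CPM in pIR hearts and 13586 ± 1021 CPM in pWT hearts (SD, n = 4 each).

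At an adjusted p under 0.05 (edgeR's quasi-likelihood test with Benjamini-Hochberg adjustment over all tested genes), 2 genes rose in pIR hearts and 0 fell, 0.0137% of the genes tested. They were Slc16a3, which encodes MCT4, a transporter that exports lactate, and Sectm1a, which encodes a secreted and transmembrane immune protein. Without adjustment, 405 genes were higher (2.77%) and 458 lower (3.13%) in pIR hearts at p under 0.05, 5.91% of those tested. DESeq2 called 20 genes, 16 higher and 4 lower in pIR hearts (0.112% of 17909). The median standard error of a log2 fold change was 0.0992, and for 90.3% of genes the 95% interval lay within a 2-fold change in either direction.

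Slc16a3 had 137, 166, 140 and 154 CPM in the pIR hearts, against 76.5, 79.8, 95.6 and 79.6 CPM in the pWT hearts. Every pIR heart lay above every pWT heart, and the pIR mean was 1.80 times the pWT mean. The log2 fold change was 0.86 ± 0.083 (SE), with an adjusted p of 0.0106 in edgeR's quasi-likelihood test. The call was lost without pIR replicate 4 (adjusted p 0.0836) or without pWT replicate 4 (adjusted p 0.0570), and with the liver libraries in the same fit (adjusted p 0.208), while the log2 fold change stayed between 0.80 and 0.93 whichever heart library was left out.

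Sectm1a had 25, 37, 28 and 33 counts in the pIR hearts, against 0 counts in each of the 4 pWT hearts. Its mean in pIR hearts was 1.61 ± 0.164 CPM (SD, n = 4), which is at least 38-fold higher than the limit of 3 counts over the summed 70.7 M counts of the pWT hearts. That limit covers counting error only. Its adjusted p was 0.0143 in edgeR's quasi-likelihood test, and the call was lost when any 1 pIR library was left out (0.0858 to 0.125) or without pWT replicate 4 (0.0570). Of all 25277 genes in the table, Sectm1a was the single one with 0 counts in every pWT heart and at least 10 in every pIR heart, and 0 genes had the opposite pattern.

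Slc16a3 and Sectm1a lie 107 kb apart on chromosome 11, which was seen after their values were known. Between and beside them lie Csnk1d, encoding casein kinase 1 delta, a kinase that acts on circadian clock proteins, and Ccdc57, encoding a coiled-coil protein. In the GENCODE annotation of mm10, Ccdc57 lies at chr11:120826529-120932872 on the minus strand. Slc16a3 lies at chr11:120948480-120960868 on the plus strand. Csnk1d, at chr11:120961749-120991330 on the minus strand, ends 880 bases past the end of Slc16a3. Sectm1a lies at chr11:121067407-121081220 on the minus strand. The promoters of Slc16a3 and Ccdc57 face away from each other, and their sequence is shown because both genes were higher in every pIR heart, as were Csnk1d and Sectm1a, whose promoters were not used here. Each is the 250 bases before the start in RefSeq on GRCm38.p6, given 5′ to 3′ on the strand of the gene, with CG dinucleotides, the sites of DNA methylation, in capitals. The windows are chr11:120948817-120949066 (plus) and chr11:120932873-120933122 (minus). The RefSeq start used for Slc16a3 lies downstream of its GENCODE start, so its window falls within the GENCODE gene given above.
Slc16a3: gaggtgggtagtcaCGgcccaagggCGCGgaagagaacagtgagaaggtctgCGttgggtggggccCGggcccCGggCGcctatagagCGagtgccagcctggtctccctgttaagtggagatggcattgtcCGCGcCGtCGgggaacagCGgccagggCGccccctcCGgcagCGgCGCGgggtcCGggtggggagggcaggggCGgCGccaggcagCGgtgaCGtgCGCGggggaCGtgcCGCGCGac
Ccdc57: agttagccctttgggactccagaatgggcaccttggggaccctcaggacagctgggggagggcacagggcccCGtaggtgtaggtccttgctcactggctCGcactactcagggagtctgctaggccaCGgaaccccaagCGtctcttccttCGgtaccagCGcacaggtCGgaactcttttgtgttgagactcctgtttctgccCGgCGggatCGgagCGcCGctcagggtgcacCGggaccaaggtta
The Slc16a3 window holds 29 CG dinucleotides, a number reached by 6.78% of 32851 RefSeq promoter windows of that length, and the Ccdc57 window holds 13, reached by 31.5%. The median window holds 6. Methylation of these sites was not analysed here.

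Csnk1d had 147, 144, 153 and 153 CPM in the pIR hearts, against 123, 109, 110 and 109 CPM in the pWT hearts. The groups did not overlap, and the log2 fold change was 0.42 ± 0.056 (SE). It missed the threshold (adjusted p 0.0779, edgeR), and passed it in DESeq2 (5.8e-07) and in edgeR without pWT replicate 1 (0.0111). With 1 heart left out, its adjusted p in edgeR reached as high as 0.397, while its log2 fold change stayed between 0.395 and 0.463. Ccdc57 had 9.63, 9.05, 8.89 and 8.76 CPM in the pIR hearts, against 6.95, 4.75, 6.75 and 4.70 CPM in the pWT hearts. Its groups did not overlap either, with a log2 fold change of 0.66 ± 0.15 (SE) and an adjusted p of 0.711. Annotated antisense genes overlap Ccdc57 (Gm11773) and Csnk1d (Gm28192), and as the counting is not stated to use strand, reads of such partners cannot be told apart.

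**Figure D1:**
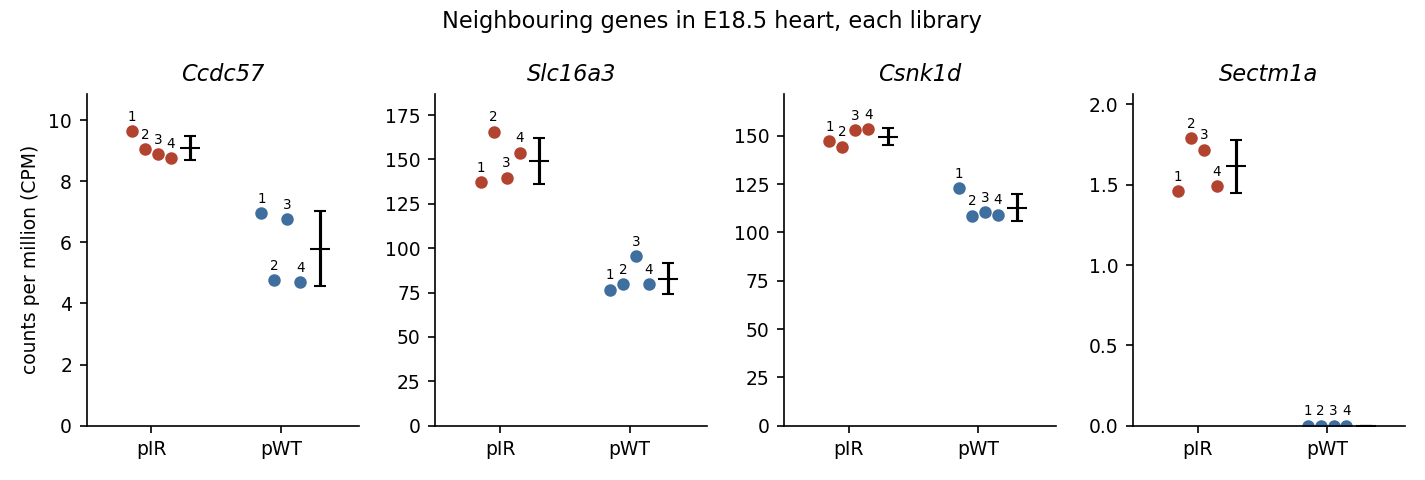
CPM (y axis, from 0) of Ccdc57, Slc16a3, Csnk1d and Sectm1a in each E18.5 heart library, numbered by replicate, with pIR left of pWT; the black bar is the mean ± SD of 4 libraries. In each panel every pIR heart lies above every pWT heart, and Sectm1a is at 0 in all 4 pWT hearts.

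By p-value, Slc16a3, Sectm1a and Csnk1d ranked 1, 2 and 3 of the 14611 genes, and Ccdc57 ranked 27. Of 51 genes starting within 500 kb of the Slc16a3 start, 42 were tested, and these 4 were the ones with every pIR heart above every pWT heart (1.40% of all tested genes have that pattern). The window was centred on Slc16a3 with its values and those of Sectm1a known, so this count is not a test of the region. The other 38 had log2 fold changes between -0.38 and 0.43. Among them, Cybc1 had an unadjusted p under 0.05, with 16.2 ± 1.92 CPM in pIR hearts and 19.2 ± 0.953 CPM in pWT hearts. Within the 255 kb from Ccdc57 to Sectm1a, Cd7 and Sectm1b were not tested, with 10 counts and 1 count over the 8 hearts.

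**Figure D2:**
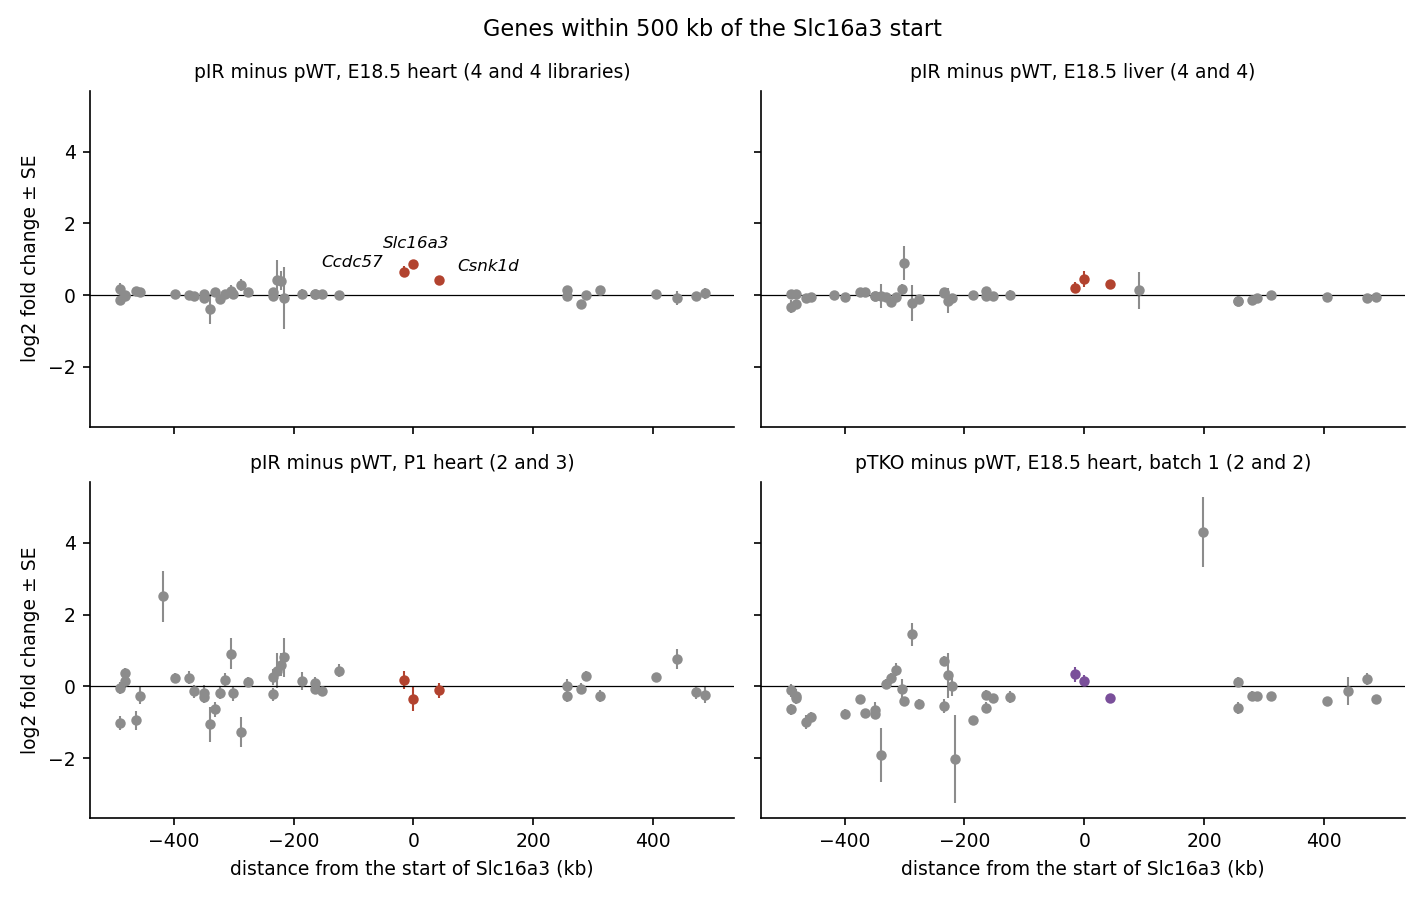
Log2 fold change with its SE (y axis) against the distance of each gene's start from the Slc16a3 start in kb (x axis) in 4 comparisons; coloured points are Ccdc57, Slc16a3 and Csnk1d, grey points the other tested genes. Sectm1a is not drawn, since its pWT hearts are at 0. In E18.5 heart the coloured genes stand at 0.66, 0.86 and 0.42, while the other tested genes lie between -0.38 and 0.43.

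The same genes were followed in the other organ, stage and genotype. Slc16a3 had 33.7, 65.3, 28.1 and 41.6 CPM in pIR livers, against 30.6, 25, 38.2 and 29.8 CPM in pWT livers, and these overlapped (log2 fold change 0.46 ± 0.22). Csnk1d had a log2 fold change of 0.31 ± 0.10 in liver, with an unadjusted p of 0.0071 and an adjusted p of 0.761 in edgeR. For neither gene did the heart effect differ from the liver effect at the threshold (differences of 0.42 ± 0.27 and 0.12 ± 0.12, adjusted p 0.911 and 0.929, edgeR). Sectm1a had 43, 37, 66 and 58 counts in pIR livers, against 43, 38, 25 and 33 in pWT livers. Its heart effect differed from its liver effect (adjusted p 0.00192, edgeR), and it was the single gene called of 16065 (0.00622%). That fit treats hearts and livers as unpaired. With genotype and replicate number as a block, 0 genes were called.

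In P1 heart, Slc16a3 had 14.6 and 16.9 CPM in pIR, against 12.6, 26.8 and 16 CPM in pWT. Sectm1a had 0 and 5 counts in pIR, against 0, 42 and 51 counts in pWT, so that 1 P1 pWT heart was also at 0. The E18.5 effect minus the P1 effect passed the threshold for both Slc16a3 (difference 1.22 ± 0.31, adjusted p 0.0309, edgeR) and Sectm1a (adjusted p 0.0137). For Slc16a3 that call was lost without pIR replicate 2 or 4 or pWT replicate 2 or 4 of E18.5 heart, or without either P1 pIR heart (adjusted p 0.0546 to 0.110). The contrast called 7.84% of 15690 genes, 4.42% higher and 3.42% lower. Its smallest p-values belonged to Rbp7, a retinol-binding protein, and Ybx1, an RNA-binding protein. Rbp7 stood at 22.0 ± 3.63 CPM in pIR and 21.5 ± 4.08 CPM in pWT E18.5 hearts, but at 20.8 and 14.2 CPM in pIR and 114, 129 and 131 CPM in pWT P1 hearts. By itself the P1 comparison called 2.32% of 15021 genes, 1.54% higher and 0.786% lower in pIR, and it called 5 to 1162 genes with 1 library left out (5 without pWT replicate 2 or 3). The stages cannot be told apart from whatever else differed between the P1 and E18.5 libraries.

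In batch 1, Slc16a3 had 308 and 272 CPM in pTKO hearts, against 263 and 227 CPM in pWT hearts. Sectm1a had 29 and 25 counts in pTKO hearts, against 19 and 36 in the batch 1 pWT hearts. The pWT hearts of batch 1 therefore held Sectm1a reads, while those of batch 2 held 0. The pIR effect minus the pTKO effect passed the threshold for Slc16a3 (0.69 ± 0.16, adjusted p 0.00517, edgeR), Csnk1d (0.74 ± 0.10, adjusted p 0.000202) and Sectm1a (adjusted p 0.000155), in a contrast that called 37.8% of 15657 genes (16.7% higher and 21.1% lower). In that contrast genotype and batch cannot be told apart.

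**Figure D3:**
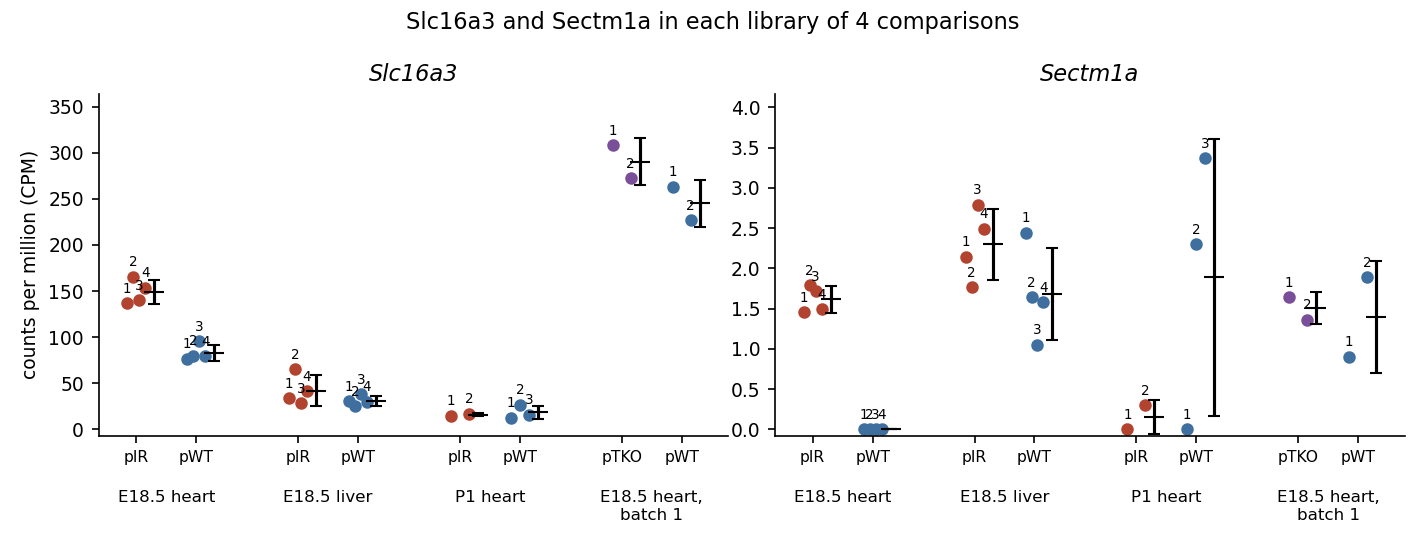
CPM (y axis) of Slc16a3 and Sectm1a in each library of 4 comparisons, with pIR or pTKO left of its pWT; bars are mean ± SD. In E18.5 heart of batch 2 the groups are apart for both genes, while Sectm1a is present in pWT liver and in both batch 1 pWT hearts.

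Glycolysis and oxygen-sensing genes, the list that holds Slc16a3, had 1 of 33 members rise, 0 fall and 32 not pass. Their median log2 fold change was 0.10, against 0.00 over all tested genes, and 29 of 33 were positive, against 50.3% of all genes. Such a lean was not particular to this list, as 41 of 46 respiratory chain genes and 19 of 25 sarcomere genes were positive. Of ribosomal protein genes 23 of 45 were positive, and of mitotic genes 9 of 32. Slc2a1, the glucose transporter GLUT1, had 157, 195, 198 and 182 CPM in pIR hearts, against 128, 144, 156 and 143 CPM in pWT hearts. Every pIR heart was above every pWT heart, with a log2 fold change of 0.37 ± 0.080 and adjusted p-values of 0.556 in edgeR and 0.0248 in DESeq2. Ddit4, an inhibitor of mTOR signalling induced by low oxygen, had a log2 fold change of 0.20 ± 0.067, and Egln3, an oxygen-sensing prolyl hydroxylase, one of 0.29 ± 0.10. Neither passed the threshold (adjusted p 0.818 each, edgeR).

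Immediate early genes, which cells transcribe within minutes of a stimulus, had 0 of 21 called, yet 13 with an unadjusted p under 0.05 and higher in pIR hearts, where 2.77% of all genes were. Their median log2 fold change was 0.61. Fos, a subunit of the AP-1 transcription factor, had 21.1, 54.1, 106 and 106 CPM in pIR hearts, against 4.40, 28.3, 17.2 and 3.78 CPM in pWT hearts. Pairs of hearts overlapped, with pIR 1 below pWT 2 (log2 fold change 2.42 ± 0.63, adjusted p 0.731, edgeR). Nr4a1, an orphan nuclear receptor, had 45.4, 77.0, 104 and 170 CPM in pIR hearts, against 17.6, 35.7, 39.9 and 22.1 CPM in pWT hearts. These did not overlap (log2 fold change 1.80 ± 0.38, adjusted p 0.488, edgeR). Fosb, Atf3, Egr1 and Zfp36 had log2 fold changes of 2.30, 1.63, 1.37 and 0.99, none of which passed. For 13 of the 21 genes the highest hearts were pIR 3 and pIR 4, and the list's median stayed between 0.53 and 0.77 with any 1 heart left out. In pIR liver, P1 pIR heart and pTKO heart, Fos had log2 fold changes of 1.62 ± 0.43, 2.03 ± 0.46 and 1.62 ± 0.79. Nr4a1 had 1.43 ± 0.32, 1.45 ± 0.32 and 0.61 ± 0.24 there. Atf3 had 0.96 ± 0.38, 0.82 ± 0.31 and -0.50 ± 0.30, and none of these passed the threshold (edgeR).

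Genes of heart load had 0 of 16 called and a median log2 fold change of 0.09, which was -0.02 without pIR 3. Of these genes 10 were positive and 6 negative. The list summed to 24130 to 26064 CPM in pIR hearts and 23482 to 32633 CPM in pWT hearts. Ccn2, a matricellular protein also called CTGF, had 209, 309, 481 and 650 CPM in pIR hearts, against 219, 260, 198 and 133 CPM in pWT hearts (log2 fold change 1.04 ± 0.31, adjusted p 0.818, edgeR). Its highest hearts were again pIR 3 and pIR 4. Nmrk2, a kinase of NAD synthesis, had 23.7 ± 5.32 CPM in pIR hearts and 15.2 ± 4.49 CPM in pWT hearts, and did not pass.

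Atrial genes were uneven between libraries. Their sum was 2688, 3015, 7116 and 4239 CPM in pIR hearts, against 2804, 3455, 2753 and 3152 CPM in pWT hearts. Myl7, the atrial myosin light chain, had 99.2, 163, 1185 and 271 CPM in pIR hearts, against 74.9, 332, 96.6 and 147 CPM in pWT hearts. Of the 10 atrial genes, 9 were highest in pIR 3, and 0 passed the test. Their median log2 fold change of 0.70 was 0.15 without pIR 3. Fewer cells of a type and less RNA per cell cannot be told apart in such bulk samples. The 8 ventricular genes had a median of -0.01, and sums of 26180 to 32240 CPM in pIR hearts and 28920 to 37331 CPM in pWT hearts. Endocardial genes, those of the inner lining, summed to 162, 185, 364 and 209 CPM in pIR hearts, against 138, 239, 166 and 182 CPM in pWT hearts, and were also highest in pIR 3. Epicardial genes, those of the outer layer, summed to 125, 156, 248 and 213 CPM in pIR hearts, against 188, 193, 161 and 117 CPM in pWT hearts. Their median log2 fold changes were 0.38 (8 genes) and 0.49 (10 genes), with 0 called in either list. Without pIR 3, Slc16a3 had a log2 fold change of 0.89 and an adjusted p of 0.0233, and Sectm1a lost its call (adjusted p 0.0858, edgeR). The part of these cell types in other results was not tested.

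Blood content varied within groups. Haemoglobin genes took 0.392, 0.393, 0.406 and 0.218% of counts in pIR hearts, against 1.30, 0.229, 0.157 and 0.543% in pWT hearts. The means of 0.352 ± 0.0899% and 0.557 ± 0.523% (SD, n = 4 each) gave p = 0.686 in an exact two-sided permutation test, whose smallest possible p is 0.0286. Liver genes, which a heart should lack, summed to 58.3, 55.3, 151 and 189 CPM in pIR hearts, against 42.6, 253, 46.1 and 51.4 CPM in pWT hearts.

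**Figure D4:**
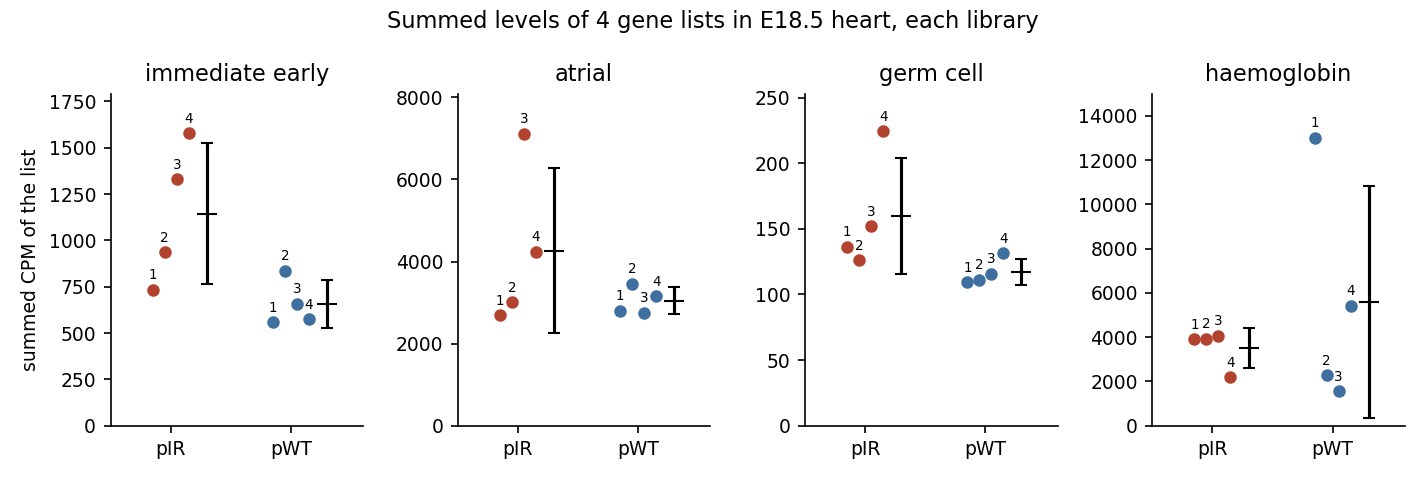
Summed CPM (y axis, from 0) of the immediate early, atrial, germ cell and haemoglobin lists in each E18.5 heart library, numbered by replicate, with pIR left of pWT; bars are mean ± SD of 4 libraries. Replicates 3 and 4 of pIR are high for immediate early genes (1332 and 1577 CPM), replicate 3 for atrial genes (7116 CPM) and replicate 1 of pWT for haemoglobin genes (13008 CPM).

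Lists of contraction, fatty acid oxidation and respiration held 0 called genes, while the glycolysis list held Slc16a3. Of 25 sarcomere genes, 14 calcium handling genes, 15 ion channel genes and 16 cardiac transcription factors, 0 rose and 0 fell. Their medians were 0.07, 0.02, 0.00 and -0.01 on the log2 scale. As 0.0137% of all tested genes were called, 0 called in lists of this size is not a result about them. The same holds for every other list with 0 called. At an unadjusted p under 0.05 (edgeR), 2 sarcomere genes were higher and 1 transcription factor was lower, with 0 calcium handling or ion channel genes. Myh7, the slow myosin heavy chain of the fetal ventricle, averaged 18148 ± 1938 CPM in pIR hearts and 20007 ± 4190 CPM in pWT hearts. Tnni1, the fetal troponin I, and Tnni3, its adult counterpart, had log2 fold changes of 0.09 ± 0.08 and 0.05 ± 0.07. Fatty acid oxidation (30 genes), respiratory chain subunits (46), ribosomal proteins (45), mitotic genes (32) and p53 targets (22) also had 0 called, with medians of -0.00, 0.04, 0.00, -0.08 and -0.02. Interferon-induced genes had a median of -0.21, with 0 of 25 called.

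**Figure D5:**
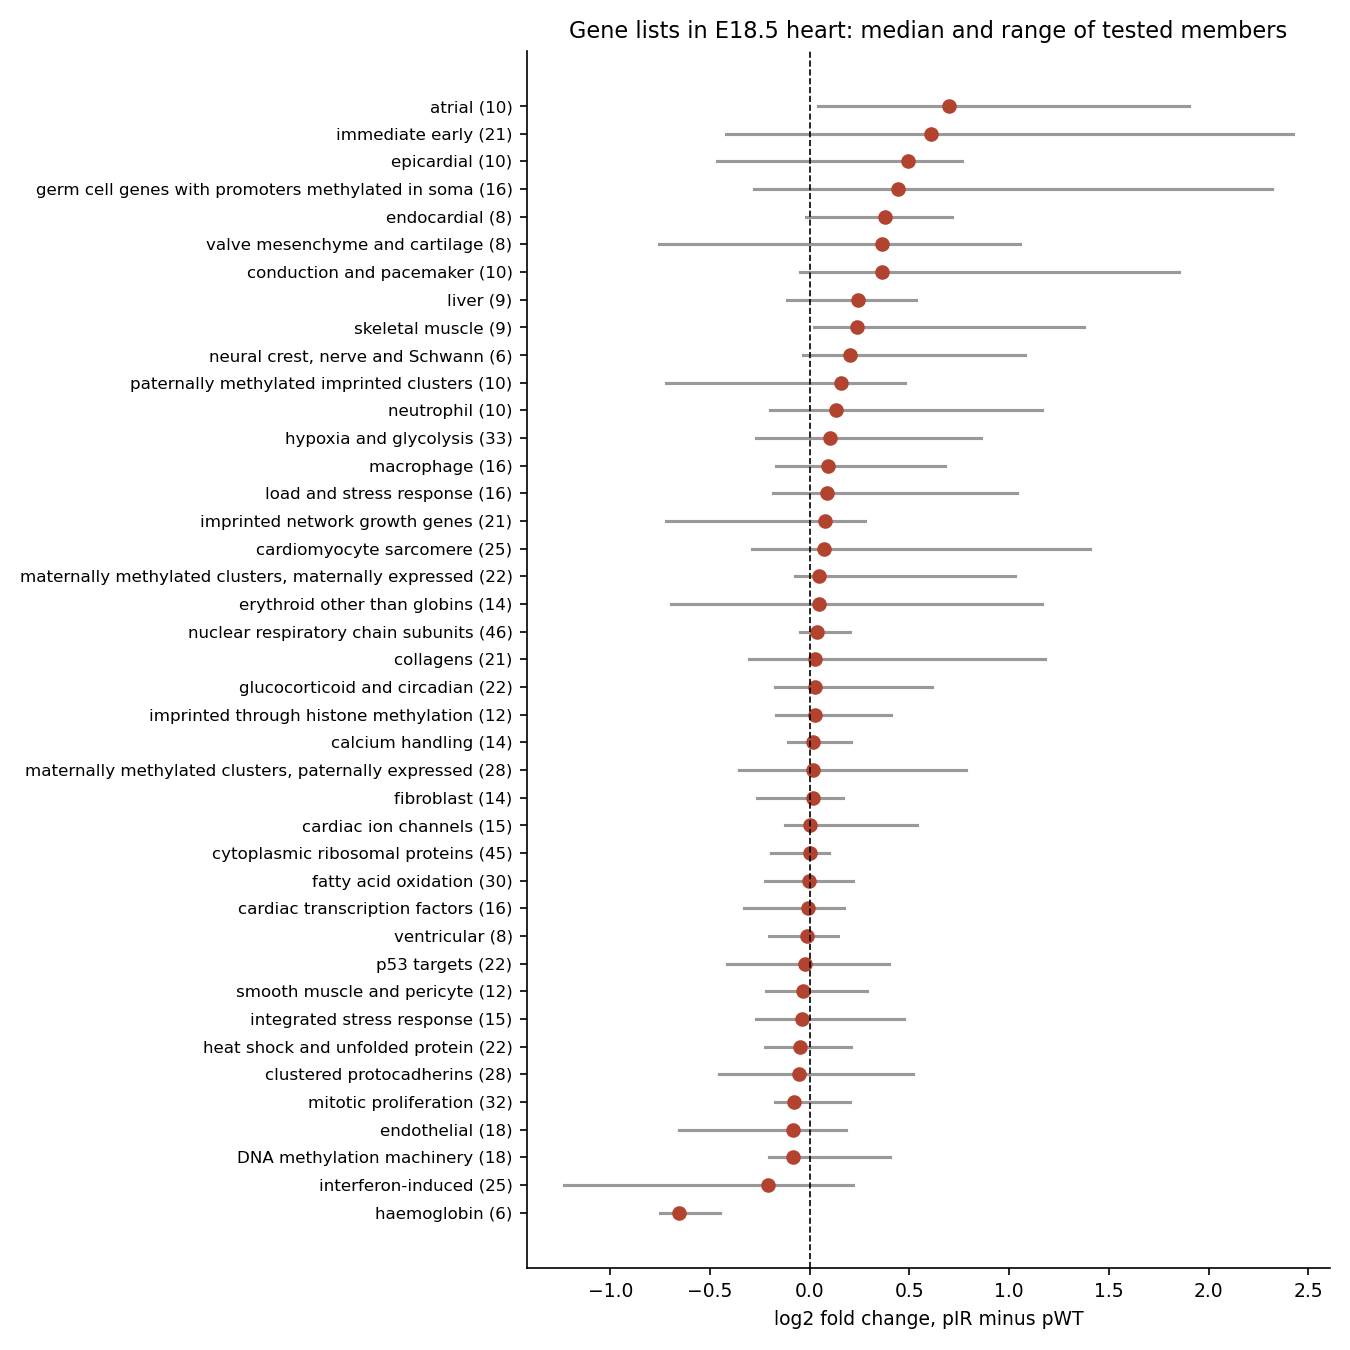
Median (point) and range (line) of the log2 fold change, pIR minus pWT, over the tested members of the 41 gene lists with at least 5 tested members in E18.5 heart, with the number tested in brackets; the dashed line is the median of all 14611 genes. Of these medians 26 lie within 0.1 of it, those of the atrial (0.70), immediate early (0.61), epicardial (0.49) and germ cell (0.44) lists lie farthest to the right, and that of the haemoglobin list (-0.66) farthest to the left.

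Imprinted genes whose control regions are methylated in sperm had 0 of 10 called. H19, a maternally expressed non-coding RNA, had 4478, 4479, 6251 and 4964 CPM in pIR hearts, against 3769, 4786, 4467 and 4254 CPM in pWT hearts. Igf2, the paternally expressed growth factor beside it, averaged 3735 ± 357 CPM in pIR hearts and 3571 ± 123 CPM in pWT hearts. Their log2 fold changes were 0.23 ± 0.11 and 0.07 ± 0.07. In the Dlk1-Dio3 cluster, the paternally expressed Dlk1, a growth regulator, had 37.9, 43.9, 35.4 and 30.3 CPM in pIR hearts, against 93.5, 49.1, 49.3 and 52.9 CPM in pWT hearts. Every pIR heart was below every pWT heart (2.34% of all genes), but the change did not pass (log2 fold change -0.72 ± 0.21, adjusted p 0.818, edgeR). The paternally expressed Rtl1 had a log2 fold change of -0.42 ± 0.26. The maternally expressed non-coding RNAs of the cluster, Meg3, Rian and Mirg, had 0.25 ± 0.19, 0.25 ± 0.18 and -0.36 ± 0.30, while Mir1906-1 and Begain had 0.48 ± 0.19 and 0.47 ± 0.36. Mir1906-1 is annotated within Meg3 on the same strand, so its reads cannot be told apart from those of Meg3. Zdbf2, a paternally expressed gene of another cluster, had -0.27 ± 0.14. Single hearts moved these values: with 1 heart left out, Dlk1 ran from -0.82 to -0.44, Rtl1 from -0.52 to -0.18 and Mirg from -0.56 to -0.04, each nearest to 0 without pWT 1. Meg3 ran from 0.09 to 0.37, Rian from 0.11 to 0.37, Mir1906-1 from 0.31 to 0.63 and Zdbf2 from -0.36 to -0.14, each nearest to 0 without pIR 4, and Begain ran from 0.27 to 0.63. Gpr1 was too low to test, and Rasgrf1 and Dio3 had 0 counts in all 8 hearts.

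In pTKO hearts, Dlk1 had 32.6 and 27.0 CPM, against 114 and 173 CPM in batch 1 pWT hearts (log2 fold change -2.34 ± 0.21, adjusted p 0.0165, edgeR), in a comparison that called 26.8% of 15075 genes, 15% higher and 11.9% lower. That comparison called 0 genes without either of the pTKO hearts, which touches each pTKO call given here. The pIR effect on Dlk1 minus the pTKO effect was 1.62 ± 0.37 (adjusted p 0.0044, edgeR), with batch and genotype not separable.

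Imprinted genes whose control regions are methylated in the egg had 0 of 22 called among those listed as maternally expressed, and 0 of 28 among those listed as paternally expressed. Ddc, which encodes an enzyme of dopamine and serotonin synthesis, had 187, 226, 187 and 283 CPM in pIR hearts, against 75.1, 96.6, 106 and 159 CPM in pWT hearts. It stood in the first list, although its transcript in heart is known in mouse to be paternally expressed. The groups did not overlap, and its pIR mean was 2.02 times the pWT mean, but it did not pass (log2 fold change 1.03 ± 0.21, adjusted p 0.482, edgeR). In pTKO hearts Ddc had 542 and 532 CPM, against 230 and 252 CPM in batch 1 pWT hearts (log2 fold change 1.08 ± 0.09, adjusted p 0.0165, edgeR). The pIR effect on Ddc minus the pTKO effect was -0.05 ± 0.34 (adjusted p 0.925, edgeR). The antisense gene 1700042O10Rik overlaps Ddc, and the same limit on strand holds there. Igf2r, a receptor that clears IGF2, had a log2 fold change of 0.12 ± 0.05.

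Of 18 genes of the DNA methylation machinery, which write and erase the mark, 0 were called. Dnmt1, the maintenance methyltransferase, and Uhrf1, its partner, had log2 fold changes of 0.07 ± 0.07 and -0.01 ± 0.09. The de novo methyltransferases Dnmt3a and Dnmt3b had -0.15 ± 0.07 and -0.12 ± 0.16. Tet1, Tet2 and Tet3, which oxidize methylated cytosine, had -0.15 ± 0.10, -0.20 ± 0.06 and -0.11 ± 0.07. Tet2 had 68.1, 64.9, 62.3 and 58.0 CPM in pIR hearts, against 71.6, 72.6, 75.3 and 73.7 CPM in pWT hearts, every pIR heart lower, with an adjusted p of 0.789 (edgeR).

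Germ cell genes with promoters methylated in body tissues had 0 of 16 tested members called by edgeR. DESeq2, whose fit held 30 members, called 1, Tex11 (adjusted p 0.0197). The median log2 fold change of the 16 genes in edgeR was 0.44, and 0.14 without pIR 4. Slc25a31, a testis ADP/ATP carrier, had 8.93, 6.82, 24.2 and 47.2 CPM in pIR hearts, against 8.28, 3.64, 3.49 and 2.26 CPM in pWT hearts (log2 fold change 2.32 ± 0.61, adjusted p 0.731, edgeR). Hearts pIR 3 and 4 were high, and pIR 2 lay below pWT 1. Tex11, a meiotic protein, had 5.72, 8.27, 11.6 and 21.4 CPM in pIR hearts, against 4.63, 5.49, 3.38 and 3.84 CPM in pWT hearts. Ddx4, a germ line RNA helicase, had 2.63, 2.03, 5.77 and 9.44 CPM in pIR hearts, against 2.14, 1.06, 1.88 and 1.65 CPM in pWT hearts. For all 3 genes pIR 4 was the highest heart and pIR 3 the next.

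In liver too, replicates 3 and 4 of pIR were the highest libraries for Slc25a31, which had 0.35, 0.81, 4.23 and 13.6 CPM in pIR livers, against 0.34, 0.43, 0.51 and 0.33 CPM in pWT livers. Tex11 had 0.65, 0.14, 1.23 and 2.88 CPM in pIR livers, against 0.45, 0.26, 0.13 and 0 CPM in pWT livers. The labels do not say whether heart and liver of the same number come from the same animal. In pTKO hearts Slc25a31 had 29.4 and 41.1 CPM, against 1.00 and 3.26 CPM in batch 1 pWT hearts (log2 fold change 4.0 ± 0.54, adjusted p 0.0196, edgeR).

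The further genes that DESeq2 called, and that edgeR did not, were looked at after their values were seen. Bhlhe40, a transcriptional repressor of the circadian clock, had 73.8, 72.9, 66.4 and 70.9 CPM in pIR hearts, against 47.6, 48.3, 57.3 and 53 CPM in pWT hearts. The groups did not overlap (log2 fold change 0.47 ± 0.07, adjusted p 0.122 in edgeR and 2.3e-05 in DESeq2). Prdm1, a transcriptional repressor, had 3.39, 3.00, 1.84 and 2.75 CPM in pIR hearts, against 7.65, 5.23, 6.64 and 5.43 CPM in pWT hearts, the largest of the 4 lower ones (log2 fold change -1.17 ± 0.21, adjusted p 0.481 in edgeR and 0.0011 in DESeq2). Snai2, Eif5 and Gxylt1 were the other lower ones, with log2 fold changes of -0.54, -0.52 and -0.33. Id1, Pim1, Apold1, Errfi1, Irf2bp2, Depp1, Sik1 and Zfp36l1 were higher by 0.61, 0.74, 0.82, 0.52, 0.63, 0.79, 0.60 and 0.26, and Fgf23, a hormone of phosphate balance, by 1.55. Scgb3a2, a secretoglobin of the airways, had 9, 4, 13 and 62 counts in pIR hearts, against 0, 0, 2 and 0 in pWT hearts. It did not pass the filter on low counts used with edgeR and was not tested there. The remaining called genes, Slc16a3, Sectm1a, Csnk1d, Slc2a1 and Tex11, are described above.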

How the data were processed

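Polyadenylated RNA was sequenced. The deposited tables give raw read counts for 25277 gene symbols, as the labels state. The submitters' processing notes name Trim Galore 0.6.6, HISAT2 2.1.0, featureCounts 1.6.4, DESeq2 and the mm10 build. The handling of strand and of multiply mapped reads is not stated. The protocol describes 2 library kits without saying which libraries used which. Hbb-bt and Hbb-b2 held identical counts in all 25 libraries used, and haemoglobin sums hold both. From the 3 tables used, 15 columns were not used.

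Genes were kept with filterByExpr (minimum count 10), scaled by TMM and tested with edgeR 4.0.16 (R 4.3.3), with adjusted p under 0.05 called. Each SE was taken as the size of the log2 fold change over the root of F. Printed CPM were computed from the deposited counts and library totals, without TMM scaling. Levels of different genes are not length-corrected and were not compared. The procedure was tested on simulated data. Alternatives included DESeq2 1.42.0, other scalings and filters, a replicate block and each library left out. Gene positions came from GENCODE release 21 of mm10 (96.6% of genes).

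The compared groups and gene lists were chosen with earlier results of these data known. The rule for named genes took, among called genes whose groups did not overlap and whose higher group averaged 5 CPM or more, up to 12 each way. It also took up to 6 called members of each list, or up to 3 with the smallest p where 0 were called, and defining tissue markers. All measured genes of the paternally methylated clusters, the Dnmt and Tet genes and Uhrf1 were included, as were called genes moving alike in liver or P1 heart, up to 10, and up to 6 by p of each contrast between effects. Slc16a3 and Sectm1a were named by choice. Not every gene the rule allows is printed. The neighbours Csnk1d, Ccdc57 and Cybc1, the genes called by DESeq2 alone and Fos, Egr1, Atf3, Ddit4, Egln3 and Myl7 lie outside the rule and were picked with their values in view.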

Additional observations from a re-analysis of the deposited data

Results flagged for a closer look

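Of 126 sets of 4 heart libraries checked (named genes and list sums), 11 held 1 library far from the other 3, where chance gives about 1 in 20. In pIR hearts, Myl7 had 1185 CPM in replicate 3, against 99.2 to 271 in the others. Replicate 4 of pIR had 119 CPM of Apold1 and 196 CPM of Irf2bp2, both above the others, and 13.3 CPM of Cybc1 and 2177 CPM of summed haemoglobin, both below. Rtl1 had 1.65 CPM in pIR replicate 2, below the others. In pWT hearts, replicate 1 had 123 CPM of Csnk1d, 93.5 CPM of Dlk1 and 3754 CPM of Igf2, each above the other 3. Slc16a3 had 95.6 CPM in pWT replicate 3, still below every pIR heart, and the liver list summed to 253 CPM in pWT replicate 2.

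Other results stood out because the effect in E18.5 heart differed from that in another group by the test of the difference (edgeR, adjusted p). The heart effect on Sectm1a differed from the liver effect (0.00192), the P1 heart effect (0.0137) and the pTKO effect (0.000155). Its fitted difference rests on pWT hearts at 0 and is not given as a size. Slc16a3 differed from P1 heart by 1.22 (adjusted p 0.0309) and from pTKO by 0.69 on the log2 scale (adjusted p 0.00517). Csnk1d differed from pTKO by 0.74 (adjusted p 0.000202) and Dlk1 by 1.62 (adjusted p 0.0044). Tet2 differed from pTKO by -2.38 (adjusted p 9e-07), with 58.2 and 58.8 CPM in pTKO hearts, against 12.9 and 11.6 CPM in batch 1 pWT hearts. Rbp7 and Ybx1 differed from P1 heart by 2.99 and 1.13 (adjusted p 0.00036 each). In the pTKO contrasts batch and genotype cannot be told apart.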

How the results depend on the processing

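The count of 2 genes in E18.5 heart was the same under median-of-ratios scaling, library totals, no filter and without blood genes. It was 20 with DESeq2, 1 with a mean of at least 50 counts, 1 with the liver libraries in the fit, and 0 to 3 with 1 library left out. With the replicate number as a block it was 0, with adjusted p of 0.137 for Slc16a3 and 0.588 for Sectm1a. The labels do not say whether the numbers pair the hearts. Between same-numbered pIR and pWT hearts, deviations of log CPM from the group mean correlated at -0.30 to 0.092, 0 of 4 over 0.1. Between differently numbered ones they correlated at -0.36 to 0.43. These values show no sign of pairing, but so few cannot exclude it. With liver in the fit, Slc16a3 had an adjusted p of 0.208; the cause was not tested.

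Heart against liver gave 1 gene, 3 with DESeq2, 0 with the block, and 1 to 2 with 1 library left out. Between same-numbered hearts and livers, deviations of log CPM from the group mean correlated at 0.028 to 0.1 in pIR and 0.01 to 0.13 in pWT. Between differently numbered ones they correlated at -0.067 to 0.055 in pIR and -0.1 to 0.069 in pWT. Heart against P1 heart gave 1230, 1935 with DESeq2, 0 with the block, and 237 to 2035 with 1 library left out, lowest without P1 pIR replicate 2. Heart against pTKO gave 5918, and 4805 to 6092 with 1 library left out. Among alternatives chosen after seeing the data, liver alone gave 0 genes (11 with DESeq2, 4 with the block, 0 to 2 with 1 library left out). P1 heart gave 349 (1597 with DESeq2, 56 with the block, 5 to 1162 with 1 library left out). The pTKO comparison gave 4042, 2535 with the block and 0 to 5266 with 1 library left out, 0 without either pTKO heart. With 2 libraries in each group, such correlations cannot tell whether its numbers pair the hearts as given or crossed. Crossing them gave 3034.

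The haemoglobin share difference of -0.205 percentage points ran from -0.338 to 0.0429 with 1 library left out, reversing without pWT replicate 1. With 1 library left out, signs also turned for Myh7 (-0.21 to 0.0293), Tnni3 (-0.0161 to 0.0797), Dnmt3b (-0.199 to 0.0273), Uhrf1 (-0.0743 to 0.0519, and 0.00404 with liver in the fit), Rbp7 (-0.08 to 0.133), the Csnk1d difference from liver (-0.0263 to 0.164) and the Ddc difference from pTKO (-0.193 to 0.188). Of the other single-gene values, 1100 kept direction and side of the threshold, 18 gained a call and 21 lost one. Precision is limited by depth and spread: the 95% interval of a log2 fold change reached a median of 0.219 above and below it.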
